A study of Mus musculus with 11 samples.

Results

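The genes described here make up the degradative core of the lysosome: the cathepsin proteases and the asparaginyl endopeptidase Lgmn, the subunits and accessory proteins of the vacuolar ATPase, the lysosome-associated membrane proteins Lamp1 and Lamp2, and the transcription factors Tfeb and Tfe3. They were chosen by name among protein-coding genes (Cts followed by 1 letter, Atp6v, Atp6ap, and the 5 single genes Lamp1, Lamp2, Lgmn, Tfeb and Tfe3), a rule that uses names alone and was set with earlier results of these data known. The names matched 47 genes, of which 36 passed the filter on low values (a log2 CPM, the log2 of reads relative to the library total, no lower than -1 in 5 or more libraries) that left 12969 genes in all. RNA sequencing was performed on thioglycollate-elicited peritoneal macrophages, inflammatory cells recruited into the peritoneal cavity by an injected irritant, from female mice. The cells had received either a mimic of microRNA-150 (miR-150), a synthetic RNA that acts as extra copies of it (6 libraries), or a negative control (5 libraries). By its title the series is about miR-150 of macrophages and pathological angiogenesis in macular degeneration, and the comparison asks which transcripts differ when the cells carry the mimic. The labels state no strain, age, dose or time after delivery. The labels do not tie replicates to different animals or cultures, and the p-values therefore reflect the spread among these libraries, which may be technical.

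The lysosome is an acidic compartment in which macrophages break down what they engulf and what autophagy delivers. The vacuolar ATPase acidifies it: a cytosolic V1 sector hydrolyses ATP and turns a ring of membrane subunits in the V0 sector, which moves protons into the lumen. Cathepsins are made as inactive precursors, mature at low pH and cut proteins there, including those whose peptides are later presented on MHC class II. Lamp1 and Lamp2 are heavily glycosylated proteins that line the membrane. Tfeb and Tfe3, of the MiT/TFE family, enter the nucleus when mTORC1 is inactive and bind an element with the letters CACGTG in the promoters of many lysosomal genes.

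Reads assigned to genes numbered 20313901 to 25473814 in the mimic libraries and 18538509 to 22668862 in the control libraries. All 12 listed macrophage markers passed the filter, and their summed level was 17560 to 22170 CPM in mimic libraries and 19160 to 22000 CPM in control libraries. Lyz2 made up most of it. In mimic libraries 3 of the 12 were higher (25.0%, against 15.4% of all tested genes) and 2 lower (16.7%, against 14.6%). Fcgr1 (1.32, adjusted p = 4.05e-09), Msr1 (0.55, 7.31e-07) and Adgre1 (0.18, 0.00790) were the higher ones. Lyz2 (-0.23, adjusted p = 0.0251) and Cd14 (-0.26, 0.0153) were the lower ones. The summed neutrophil markers reached 120 to 140 CPM in mimic libraries and 131 to 149 CPM in control libraries, and 7 of the 11, among them S100a9 and Ly6g, failed the filter. Csf3r made up most of that sum, and 2 of the 4 tested neutrophil markers were lower in mimic libraries, S100a8 (-0.56, adjusted p = 0.00789) and Mmp9 (-0.63, adjusted p = 0.00880). Of 6 listed eosinophil markers 4 failed it, and the sum was 29.4 to 31.8 CPM in mimic libraries and 35.8 to 39.0 CPM in control libraries. Mesothelial and fibroblast markers summed to 29.9 to 60.2 CPM in mimic libraries and 40.3 to 59.1 CPM in control libraries. The eosinophil marker Siglecf (-0.31, adjusted p = 4.94e-05) and the B cell marker Ighm (-0.75, adjusted p = 0.0302) were lower too, and none of the other-cell markers tested was higher; the part of such cells in the values below was not tested. The summed markers of mast cells (0.987 to 1.78 CPM in mimic libraries, 0.580 to 1.15 in control libraries), B cells (2.30 to 3.81 and 3.06 to 4.94), T and NK cells (0.869 to 1.27 and 0.992 to 1.35) and dendritic cells (4.64 to 6.01 and 4.64 to 6.23) were low. In bulk RNA, fewer cells of a type and less RNA per cell cannot be told apart. The mimic libraries were spread out on the second principal component of all tested genes (12.8% of the variance, after 45.5% on the first). Mimic library 1 lay farthest out there at 22.8, libraries 2 and 5 at 12.9 and 9.80, libraries 3, 4 and 6 at -4.55, -11.6 and -10.7, and the control libraries at -5.55 to 0.32. On the first component mimic library 1 was the nearest to the controls, at -1.76, against -11.0 to -27.3 for the other mimic libraries. Without mimic library 1, 40.1% of all genes were called in place of 30.0%, the share with all libraries. The next values are again on the first component. Mimic libraries 3, 4 and 6 were the farthest from the controls on that component, at -20.4, -27.3 and -25.6. Results are given also without these libraries together where that ends or makes a call of a named gene or moves a called value by over 1.5 times. That fit keeps only the mimic libraries nearer to the controls, and the opposite omission, of libraries 1, 2 and 5, was not run. It is thus a description and no independent check of a call. A list of 23 interferon-response genes was higher in mimic libraries for all 23 members, at a median log2 change of 1.84, and the part of that response in the values below was not tested.

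Promoter stretches are shown for 5 members that hold the CACGTG element before their start, the letters by which Tfeb and Tfe3 are known to bind this class of gene; Ctsd and Atp6v0b were lower with the mimic, and Ctsa, Lamp1 and Atp6v1a did not pass the test. RefSeq windows (250 bases before to 50 after a gene's start, GRCm38.p6) were available for 26 of the 36 tested genes. CACGTG, which is its own reverse complement, stood in a window of 10 of them (38.5%), against 8.09% of all 27025 genes with a window. The longer TCACGTGA, which contains CACGTG and is counted within it, stood in 5 of 26 (19.2%), against 1.12% of all genes with a window. The 26 genes all passed the filter on low values, and the genes with a window were not filtered, so the sets are unlike. These letters are shared by the sites of many other E-box factors, and a match is a description of the sequence, not a measured site. The motifs were chosen after the expression values were known. Each line gives 120 bases on the gene's strand, 5′ to 3′, with CACGTG or TCACGTGA in capitals, ending at the base before the RefSeq start, except Atp6v1a, which covers bases 189 to 70 before it.
Ctsd, chr7:142387828-142387947, minus strand: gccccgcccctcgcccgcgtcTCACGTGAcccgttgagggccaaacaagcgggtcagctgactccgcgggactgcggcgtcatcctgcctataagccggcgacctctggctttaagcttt
Ctsa, chr2:164833653-164833772, plus strand: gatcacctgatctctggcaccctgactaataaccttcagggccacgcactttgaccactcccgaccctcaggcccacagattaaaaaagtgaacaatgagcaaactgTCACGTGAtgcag
Atp6v0b, chr4:117887330-117887449, minus strand: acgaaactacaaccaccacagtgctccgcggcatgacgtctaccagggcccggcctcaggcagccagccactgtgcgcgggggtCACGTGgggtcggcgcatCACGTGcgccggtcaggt
Lamp1, chr8:13159041-13159160, plus strand: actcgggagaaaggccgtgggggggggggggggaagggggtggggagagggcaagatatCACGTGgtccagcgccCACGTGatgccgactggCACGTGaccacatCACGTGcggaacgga
Atp6v1a, chr16:44139329-44139448, minus strand: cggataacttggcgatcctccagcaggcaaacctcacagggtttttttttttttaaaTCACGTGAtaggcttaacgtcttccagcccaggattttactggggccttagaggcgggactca

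Lamp1 held 4 copies of the element within 61 bases of its start, and Atp6v0b held 2 within 36 bases. Ctsd had TCACGTGA at bases 99 to 92 before the start and Ctsa at bases 13 to 6. The GENCODE M21 annotation places an earlier start for Ctsd, Ctsa and Atp6v1a, so that these stretches lie inside the annotated span of the gene there. The other members with CACGTG were Atp6v0d1, Atp6v0e, Ctsf, Ctsl and Lgmn. Among the 10 members with the letters, 4 were lower in mimic libraries (Atp6v0b, Atp6v0e, Ctsd and Ctsf), none was higher and 6 did not pass the test. Among the 16 members with a window and no CACGTG, 5 were higher, 5 were lower and 6 did not pass. Of the 10 members without a window, Atp6v0a2, Atp6v1c1 and Ctse were higher and none was lower. The counts with a window thus leave out these higher genes. Of all tested genes, 15.4% were higher and 14.6% lower. The counts are small, and whether the letters go with the direction of change was not tested. The letters stood in members with log2 fold changes from -0.38 to 0.12, and members without them ran from -0.45 to 0.44.

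A second element, GAAANNGAAA, the core of the interferon-stimulated response element, was searched on both strands. It stood in 4 of the 26 members (15.4%), namely Atp6v1d, Ctso, Ctss and Lamp1, against 3.99% of all genes with a window, which were not filtered on level. In Ctss, the protease that trims the invariant chain of MHC class II, it lay 21 to 12 bases before the start, on the plus strand. In Ctso it lay after the start, and in Atp6v1d and Lamp1 on the strand opposite to the gene. Of the 4, Ctss and Ctso were higher with the mimic, and Atp6v1d (-0.01) and Lamp1 (-0.07) did not pass the test. Ctsc, Lamp2 and Atp6ap2, also higher, had a window without the element. Whether the element bears on the change was not tested. The Ctss stretch is shown with the element in capitals.
Ctss, chr3:95526666-95526785, plus strand: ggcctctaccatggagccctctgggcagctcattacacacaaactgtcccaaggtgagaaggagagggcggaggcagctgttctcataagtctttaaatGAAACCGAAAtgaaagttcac

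These genes were among the most abundant transcripts of the macrophages. Per kilobase of the longest annotated transcript, 11 of the 36 ranked within the top 100 of 12933 genes in the control libraries. Ctsd, the main aspartic protease of lysosomes, ranked 3, Ctss ranked 6 and Ctsb, a cysteine protease, ranked 12. The 47 genes together took 8.43% ± 0.44 of assigned reads in mimic libraries (SD, n = 6) and 8.69% ± 0.16 in control libraries (SD, n = 5), ranges that overlapped. Ctsd alone took 2.15% to 2.70% of reads in mimic libraries and 2.81% to 2.91% in control libraries. Ctss took 1.62% to 1.82% in mimic libraries and 1.47% to 1.62% in control libraries. On the per-length scale Ctss stood above Ctsd in mimic libraries (levels of 13.63 ± 0.10 and 13.46 ± 0.17 log2 CPM per kb, SD, n = 6), and below it in control libraries (13.47 ± 0.07 and 13.71 ± 0.04, SD, n = 5). The V0 subunit Atp6v0d2 ranked 54 and Lamp1 ranked 24, while Ctsf, Atp6v1g2, Ctse and Ctsw lay far lower, at ranks 8566, 9234, 10100 and 11643.

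**Figure D1:**
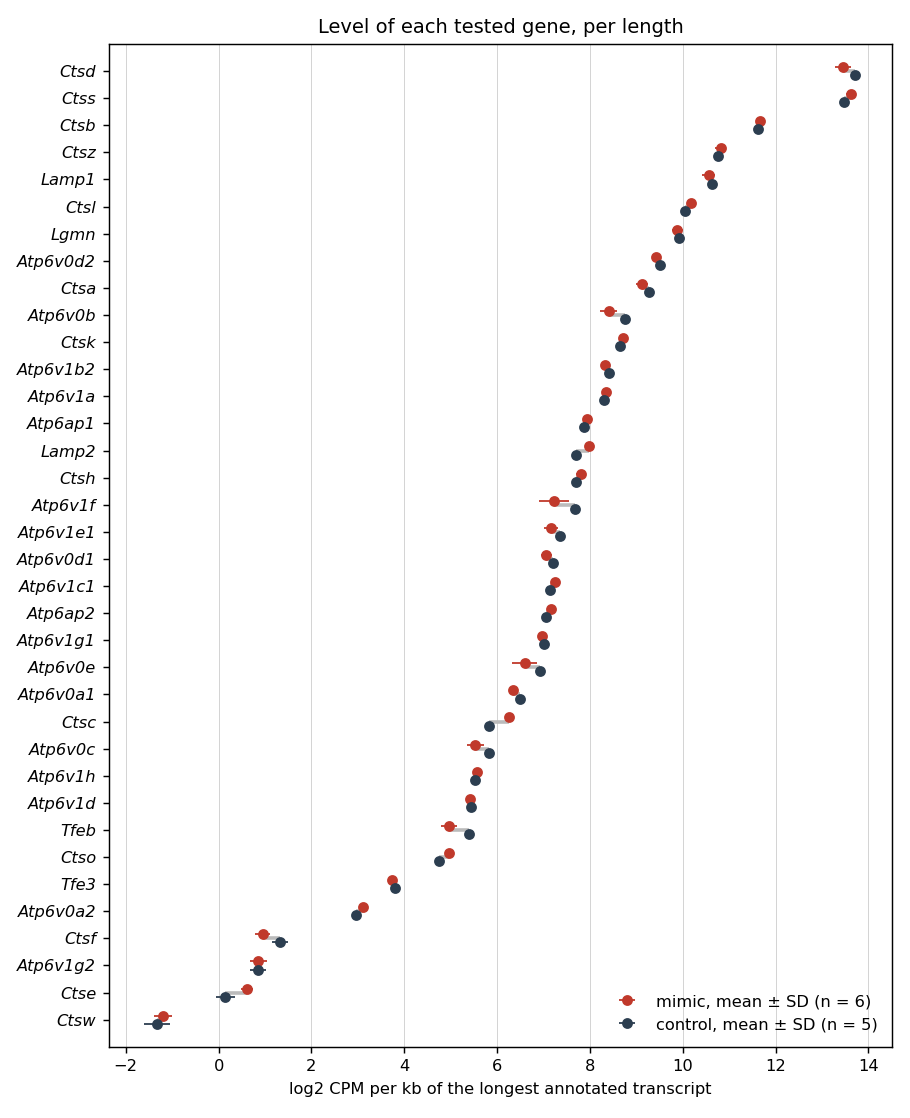
Mean level of each tested gene in log2 CPM per kilobase of its longest annotated transcript, with SD, in mimic (red, n = 6) and control (dark, n = 5) libraries, ordered by the control level. Levels ran from 13.71 for Ctsd to -1.32 for Ctsw in control libraries, and Ctss passed Ctsd in mimic libraries.

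The 11 matched genes that failed the filter were mostly forms known from other tissues, and gave few reads in all libraries together. Atp6v0e2 had 38 reads over the mimic libraries and 37 over the control libraries, and Atp6v1c2 had 17 over the mimic and 19 over the control libraries. The other 9 had at most 7 reads per group: Atp6ap1l (5 mimic, 2 control), Atp6v0a4 (7, 1), Atp6v1b1 (3, 3), Atp6v1e2 (2, 1), Atp6v1g3 (2, 1), the neutrophil serine protease Ctsg (1, 3), and Ctsj (1, 2), Ctsq (2, 1) and Ctsr (2, 2), which in rodents are known from the placenta. No fold change was computed for them.

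Across the set the mimic went with small changes in opposite directions. Of the 36 tested genes, 8 were higher in mimic libraries (22.2%, against 15.4% of all tested genes), 9 were lower (25.0%, against 14.6%), and 19 did not pass an adjusted p of 0.05 in limma, so 47.2% of the set was called, against a background of 30.0%. With the stricter filter of log2 CPM 1, 51.4% of the set and 36.1% of all genes were called. The set holds many abundant transcripts and was not compared with genes of matched level. With plain library totals as the scaling, 7 were higher and 12 lower, against 12.3% and 16.4% of all genes. The highest fold change was 1.39 (Ctse) and the lowest was a level 1.37-fold lower (Atp6v1f). The median log2 fold change was -0.0018, against 0.00071 for all tested genes, and the median absolute change was 0.12, against 0.14. In 6 genes no mimic library overlapped a control library (16.7%, against 14.9% of all tested genes): Ctsc, Ctso, Lamp2 and Atp6v1c1 were higher, and Tfeb and Atp6v0b were lower. The count of higher genes fell to 4 without mimic library 3, control library 4 or control library 6, and to 5 without mimic library 5 or 6 or control library 2 or 3. The share of all genes called higher was 11.5% to 12.6% in those fits, and 15.4% without mimic library 5. With no filter on low values, which brings 31936 genes into the fit, Ctsd, Ctss, Atp6v0a2, Atp6v0e, Atp6v1e1 and Atp6v1f did not pass (adjusted p 0.0816 to 0.166), and Atp6v0d1 (0.0157) and Atp6v0d2 (0.0159) did. With neither intensity trend nor robust settings, Ctss, Atp6v0e, Atp6v1c1, Atp6v1e1 and Atp6ap2 did not pass (adjusted p 0.0559 to 0.0664). Of all genes, 9.69% were called with no filter and 25.2% with neither of these settings. The calls of Ctsc, Lamp2, Ctso, Ctse, Tfeb, Ctsd, Atp6v0b, Atp6v0c and Ctsf held without each single library.

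**Figure D2:**
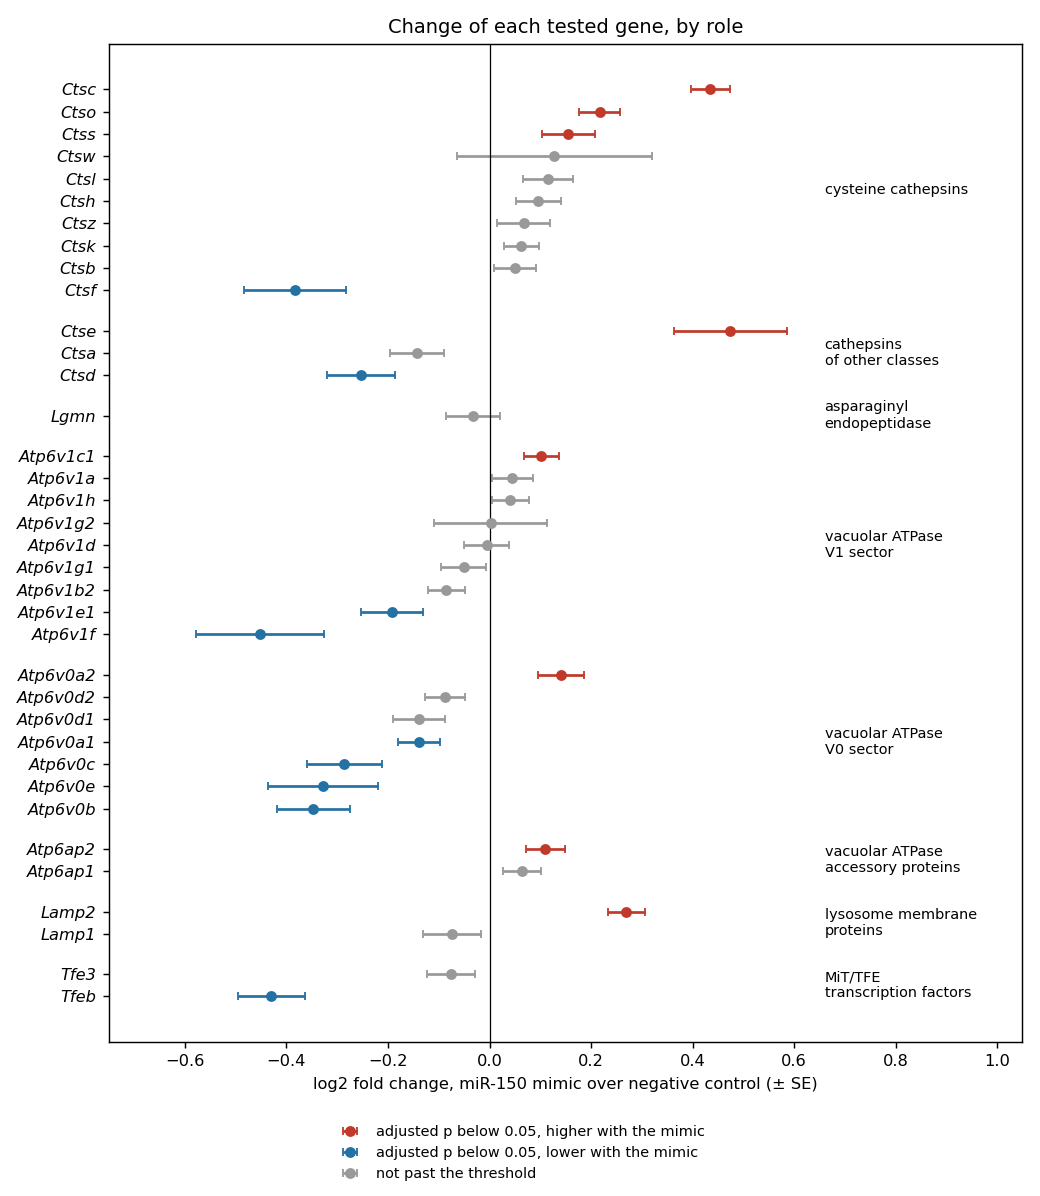
Log2 fold change of each tested gene, mimic over control, with its standard error from limma, grouped by role; red and blue mark adjusted p below 0.05. Of the 17 coloured genes 8 lie right of 0 and 9 left, 4 of the 9 in the V0 sector of the vacuolar ATPase, and Ctse lies farthest out at 0.47.

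Of the 10 cysteine cathepsins tested, 3 were higher (Ctsc, Ctso and Ctss; 30.0%, against 15.4% of all genes), 1 was lower (Ctsf; 10.0%, against 14.6%) and 6 did not pass, with a median log2 fold change of 0.11. Ctsc, dipeptidyl peptidase 1, which trims and activates granule serine proteases, lies on chromosome 7 at 88278085 to 88310888 (GRCm38, GENCODE M21, used for all gene positions here). Its level ran from a lowest of 7.88 through a median of 7.94 to a highest of 8.02 log2 CPM in mimic libraries, and was 7.54, 7.54, 7.56, 7.48 and 7.44 in control libraries 1, 2, 3, 4 and 6. Every mimic library stood well above every control library. The log2 fold change was 0.44 ± 0.04 (SE, 1.35-fold, adjusted p = 2.68e-07), and the 2-sided exact permutation p was 0.00216, the smallest that the splits of these libraries allow. Ctso, a widely expressed cysteine protease on chromosome 3 at 81932601 to 81956725, averaged 6.76 ± 0.07 in mimic libraries and 6.54 ± 0.02 in control libraries (log2 CPM, SD), without overlap. Its log2 fold change was 0.22 ± 0.04 (adjusted p = 0.00099).

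Ctss, the invariant chain protease, averaged 14.07 ± 0.10 log2 CPM in mimic libraries and 13.91 ± 0.07 in control libraries (SD), and 4 of 6 mimic libraries lay above all controls. Its log2 fold change of 0.16 ± 0.05 passed the test (adjusted p = 0.0334) but not without mimic library 3 or 5 or control library 3, 4 or 6, where the adjusted p was 0.0559 to 0.0953. It was 0.27 (adjusted p = 8.45e-06) once each library was corrected for transcript length. Its annotated span holds the processed pseudogene Hmgb1-ps5.

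Ctsf, a cysteine protease with a low level here, had a lowest level of 1.87, a median of 1.97 and a highest of 2.20 log2 CPM in mimic libraries. In control libraries 1, 2, 3, 4 and 6 it had 2.14, 2.35, 2.60, 2.45 and 2.44. Only control library 1 lay within the range of the mimic libraries. Ctsf fell by 0.38 ± 0.10 on the log2 scale (1.30-fold lower, adjusted p = 0.0104).

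The other cysteine cathepsins did not pass the test. Ctsb averaged 13.9 ± 0.07 log2 CPM in mimic libraries and 13.9 ± 0.04 in control libraries (SD), with a log2 fold change of 0.05 ± 0.04 (adjusted p = 0.371). Ctsl, a broad endopeptidase, had 0.12 ± 0.05 (adjusted p = 0.0825), which passed without mimic library 2 or 4 (0.0444 to 0.0459) and in the voom fit (0.0318), and was 0.06 with the transcript length correction (0.451). Ctsk, the collagen-degrading protease known from osteoclasts, had 0.06 ± 0.03 (adjusted p = 0.181), and Ctsz, a carboxypeptidase, 0.07 ± 0.05 (adjusted p = 0.343). Both passed under the transcript length correction, at 0.16 for Ctsk and 0.17 for Ctsz, and Ctsz also without mimic libraries 3, 4 and 6. Ctsh, an aminopeptidase, had a log2 fold change of 0.10 and Ctsw, known from cytotoxic lymphocytes and at a mean level under 0 log2 CPM in either group, had 0.13, with adjusted p of 0.106 and 0.636. Ctsh passed without mimic library 4 (0.12, adjusted p = 0.0451), without mimic libraries 3, 4 and 6 (0.17, 0.000337), with no filter (0.0467) and with the transcript length correction (0.11, 0.0242).

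The cathepsins of other protease classes moved apart. Ctsd, on chromosome 7 at 142375911 to 142388038, had a lowest level of 14.35, a median of 14.51 and a highest of 14.77 log2 CPM in mimic libraries. Control libraries 1, 2, 3, 4 and 6 had 14.84, 14.83, 14.82, 14.77 and 14.75. Mimic libraries 1 and 5 stood beside the controls and libraries 4 and 6 lowest, and 5 of 6 lay below all controls. Ctsd fell by 0.25 ± 0.07 on the log2 scale (1.19-fold lower, adjusted p = 0.0108). Without mimic libraries 3, 4 and 6 the change was -0.13 (adjusted p = 0.0765). The annotated gene Gm49369 overlaps Ctsd on the same strand, so its reads may be shared.

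Ctse, an aspartic protease of endosomes, was at a low level: its lowest level was 1.5, its median 1.71 and its highest 1.85 log2 CPM in mimic libraries, and control libraries 1, 2, 3, 4 and 6 had 1.19, 1.5, 0.98, 1.13 and 1.36. Mimic library 6 and control library 2 met at 1.5, and the other 5 mimic libraries lay above all controls. The log2 fold change of 0.47 ± 0.11 (1.39-fold, adjusted p = 0.00565) was the highest of the set. Ctsa, the serine carboxypeptidase that protects lysosomal neuraminidase and β-galactosidase, had -0.14 ± 0.05 (adjusted p = 0.0533). It passed without mimic library 1 (0.00869) or 5 (0.0296), with plain totals (0.0192), in the voom fit (0.00351) and with the transcript length correction (0.0255), and its span overlaps Neurl2 and Pltp on the other strand. Lgmn, which cuts after asparagine and helps mature several cathepsins, had -0.03 ± 0.05 (adjusted p = 0.672), with mimic libraries on either side of the control range; without mimic libraries 3, 4 and 6 its change was 0.07 (adjusted p = 0.251).

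Of the 18 tested genes of the vacuolar ATPase, 3 were higher (16.7%, against 15.4% of all genes) and 6 lower (33.3%, against 14.6%). The V0 sector, which holds the proton path, had 7 tested genes, with a median log2 fold change of -0.14. Of these 4 were lower (57.1%, against 14.6% of all genes), namely Atp6v0b, Atp6v0c, Atp6v0e and Atp6v0a1. Atp6v0a2 was higher (1 of 7, 14.3%, against 15.4%), and 2 did not pass. Atp6v0b, which encodes the c″ subunit of the rotating membrane ring, lies on chromosome 4 at 117884326 to 117887333. Its lowest level was 8.19, its median 8.39 and its highest 8.64 log2 CPM in mimic libraries, and control libraries 1, 2, 3, 4 and 6 had 8.74, 8.71, 8.70, 8.77 and 8.85. All 6 mimic libraries were below all controls, mimic library 1 by the least. It fell by 0.35 ± 0.07 on the log2 scale (1.27-fold lower, adjusted p = 0.00252, exact permutation p = 0.00649, 2-sided). The change was -0.19 without mimic libraries 3, 4 and 6 (adjusted p = 0.00124) and -0.18 with the transcript length correction (adjusted p = 0.00247).

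Atp6v0c encodes the c subunit that makes up most of the ring. Its lowest level was 6.64, its median 6.93 and its highest 7.06 log2 CPM in mimic libraries, and control libraries 1, 2, 3, 4 and 6 had 7.11, 7.23, 7.25, 7.06 and 7.22. Mimic library 2 met control library 4 at 7.06, and the other 5 mimic libraries lay below all controls. Atp6v0c fell by 0.29 ± 0.07 on the log2 scale (1.22-fold lower, adjusted p = 0.0101), and by 0.13 without mimic libraries 3, 4 and 6 (adjusted p = 0.0335). The annotation names processed copies of Atp6v0c, and how the authors' counting treated reads they share is not known.

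Atp6v0e encodes a small subunit of the V0 sector. Its lowest level was 7.77, its median 8.04 and its highest 8.52 log2 CPM in mimic libraries, and control libraries 1, 2, 3, 4 and 6 had 8.45, 8.46, 8.45, 8.36 and 8.35. Mimic library 1 was the highest of all 11 libraries, and the other 5 mimic libraries lay below every control. Atp6v0e fell by 0.33 ± 0.11 on the log2 scale (1.26-fold lower, adjusted p = 0.0371). The call was lost in 9 of the 11 omissions of a single library (adjusted p 0.0518 to 0.0863), all except mimic libraries 1 and 5, and the change was -0.12 without mimic libraries 3, 4 and 6 (adjusted p = 0.464).

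The paralogous a subunits, which line the proton channel and direct the pump to different membranes, went in opposite directions. Atp6v0a1 averaged 8.41 ± 0.08 in mimic libraries and 8.55 ± 0.04 in control libraries (log2 CPM, SD) and fell by 0.14 ± 0.04 (adjusted p = 0.0208). Atp6v0a2 averaged 5.53 ± 0.06 in mimic libraries and 5.38 ± 0.07 in control libraries, a log2 fold change of 0.14 ± 0.05 (adjusted p = 0.0279). Atp6v0a1 lost its call without control library 3 or 6 (adjusted p 0.0568 to 0.0570), and Atp6v0a2 without mimic library 3 or 6 or control library 2, 4 or 6 (0.0548 to 0.0784). It was also lost for Atp6v0a2 without mimic libraries 3, 4 and 6 (0.133) and with the transcript length correction (0.100). Tcirg1, the a3 subunit of lysosomes and osteoclasts, was at 10.43 ± 0.07 in mimic libraries and 10.40 ± 0.04 in control libraries, a log2 fold change of 0.03 ± 0.04 (adjusted p = 0.548).

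The d subunits couple the stalk to the ring, Atp6v0d1 in most tissues and Atp6v0d2 mainly in osteoclasts, macrophages and epithelia. Atp6v0d1 had a lowest level of 7.60, a median of 7.75 and a highest of 7.91 log2 CPM in mimic libraries, and 7.93, 7.93, 7.98, 7.83 and 7.86 in control libraries 1, 2, 3, 4 and 6. Atp6v0d2 had a lowest level of 10.68, a median of 10.79 and a highest of 10.84 in mimic libraries, and 10.94, 10.91, 10.82, 10.84 and 10.81 in control libraries. The groups overlapped for both genes. The log2 fold changes were -0.14 ± 0.05 for Atp6v0d1 (adjusted p = 0.0526) and -0.09 ± 0.04 for Atp6v0d2 (adjusted p = 0.102). Atp6v0d1 passed without mimic library 1 or 5 (adjusted p 0.00925 to 0.0334) under both other scalings (0.0189 with plain totals, 0.0445 with median-of-ratios factors), with the stricter filter of log2 CPM 1 (0.0492) and in the voom fit (0.00755). Without mimic libraries 3, 4 and 6, its change was -0.06 (adjusted p = 0.349), as it was with the transcript length correction (0.197), while that of Atp6v0d2 was -0.12 (adjusted p = 0.0333).

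In the V1 sector, 1 of 9 tested genes, Atp6v1c1, was higher (11.1%, against 15.4% of all genes). Atp6v1f and Atp6v1e1, 2 of the 9, were lower (22.2%, against 14.6%). The other 6 did not pass, and the median log2 fold change was -0.01. Atp6v1f encodes the F subunit of the central stalk and lies on chromosome 6 at 29467718 to 29470512. Its lowest level was 6.59, its median 6.82 and its highest 7.45 log2 CPM in mimic libraries, and control libraries 1, 2, 3, 4 and 6 had 7.40, 7.40, 7.38, 7.31 and 7.35. As for Atp6v0e, mimic library 1 was above every control and the other 5 mimic libraries were below. Atp6v1f fell by 0.45 ± 0.13 on the log2 scale (1.37-fold lower, adjusted p = 0.0191). The change was -0.41 without mimic library 6 (adjusted p = 0.0507), -0.22 without mimic libraries 3, 4 and 6 (adjusted p = 0.303) and -0.25 with the transcript length correction (adjusted p = 0.00892).

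Atp6v1e1, a peripheral stator subunit, averaged 8.72 ± 0.15 log2 CPM in mimic libraries and 8.91 ± 0.05 in control libraries (SD) and fell by 0.19 ± 0.06 (adjusted p = 0.0277). The call was lost without mimic library 3 or 6 or control library 1, 2 or 3 (adjusted p 0.0571 to 0.0672), and the change was -0.07 without mimic libraries 3, 4 and 6 (adjusted p = 0.257). Atp6v1c1, the stator subunit that links the sectors, averaged 9.54 ± 0.05 in mimic libraries and 9.44 ± 0.03 in control libraries, without overlap. Its log2 fold change was 0.10 ± 0.04 (adjusted p = 0.0380). That call was lost without mimic library 3, 5 or 6 or any control library (adjusted p 0.0542 to 0.0925), and with the transcript length correction (0.06, adjusted p = 0.216).

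The subunits of the catalytic hexamer did not pass the test: Atp6v1a, which binds ATP and had the highest level of the V1 sector, had a log2 fold change of 0.05 ± 0.04 (adjusted p = 0.417). Atp6v1b2, its partner, had -0.09 ± 0.04 (adjusted p = 0.0849), and passed without mimic library 5 (0.0412), with plain totals (0.0386), with no filter (0.0480) and in the voom fit (0.0365). The regulatory subunit Atp6v1h, the stalk subunit Atp6v1d, and the stator subunits Atp6v1g1 and Atp6v1g2 lay between -0.05 and 0.04. Of the accessory proteins, Atp6ap2, also known as the prorenin receptor, averaged 8.37 ± 0.06 log2 CPM in mimic libraries and 8.26 ± 0.04 in control libraries (SD), a log2 fold change of 0.11 ± 0.04 (adjusted p = 0.0368). The call was lost in 8 of 11 omissions of a single library, all except mimic libraries 1 and 2 and control library 1 (adjusted p 0.0553 to 0.0869), and without mimic libraries 3, 4 and 6 (0.07, adjusted p = 0.174). Atp6ap1, which assists assembly of the pump, had 0.06 ± 0.04 (adjusted p = 0.205), and passed under the transcript length correction (0.10, adjusted p = 0.0180).

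The membrane glycoproteins differed from each other. Lamp2, which also serves as the receptor of chaperone-mediated autophagy, lies on the X chromosome at 38401357 to 38456454. Its lowest level was 9.76, its median 9.83 and its highest 9.87 log2 CPM in mimic libraries, and control libraries 1, 2, 3, 4 and 6 had 9.62, 9.59, 9.56, 9.54 and 9.48. The groups did not overlap. The log2 fold change was 0.27 ± 0.04 (1.21-fold, adjusted p = 5.46e-05, exact permutation p = 0.00216, 2-sided), with a range of 0.250 to 0.285 over the omissions of a single library. Lamp1 had a lowest level of 11.56, a median of 11.72 and a highest of 11.87 in mimic libraries, and 11.86, 11.84, 11.79, 11.76 and 11.70 in control libraries 1, 2, 3, 4 and 6. The mimic libraries spanned the control range, and the log2 fold change of -0.07 ± 0.06 did not pass (adjusted p = 0.349), and was 0.04 without mimic libraries 3, 4 and 6 (adjusted p = 0.511).

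Of the transcription factors, Tfeb was lower. It lies on chromosome 17 at 47737030 to 47792419. Its lowest level was 5.99, its median 6.20 and its highest 6.43 log2 CPM in mimic libraries, and control libraries 1, 2, 3, 4 and 6 had 6.58, 6.66, 6.55, 6.65 and 6.68. All 6 mimic libraries were below all controls, with library 4 lowest and library 1 highest. Tfeb fell by 0.43 ± 0.07 on the log2 scale (1.35-fold lower, adjusted p = 0.000195, exact permutation p = 0.00433, 2-sided). The change was -0.31 without mimic libraries 3, 4 and 6 (adjusted p = 1.51e-05) and -0.40 with the transcript length correction (adjusted p = 2.26e-05). Tfe3 had a lowest level of 6.28, a median of 6.39 and a highest of 6.49 in mimic libraries, and 6.47, 6.53, 6.51, 6.36 and 6.46 in control libraries. The groups overlapped, and its log2 fold change of -0.08 ± 0.05 did not pass (adjusted p = 0.240). Mitf, a relative that also activates lysosomal genes, had -0.05 ± 0.04 (adjusted p = 0.381), and passed without mimic libraries 3, 4 and 6 (-0.13, adjusted p = 0.00924) and with the transcript length correction (-0.10, adjusted p = 0.0361).

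**Figure D3:**
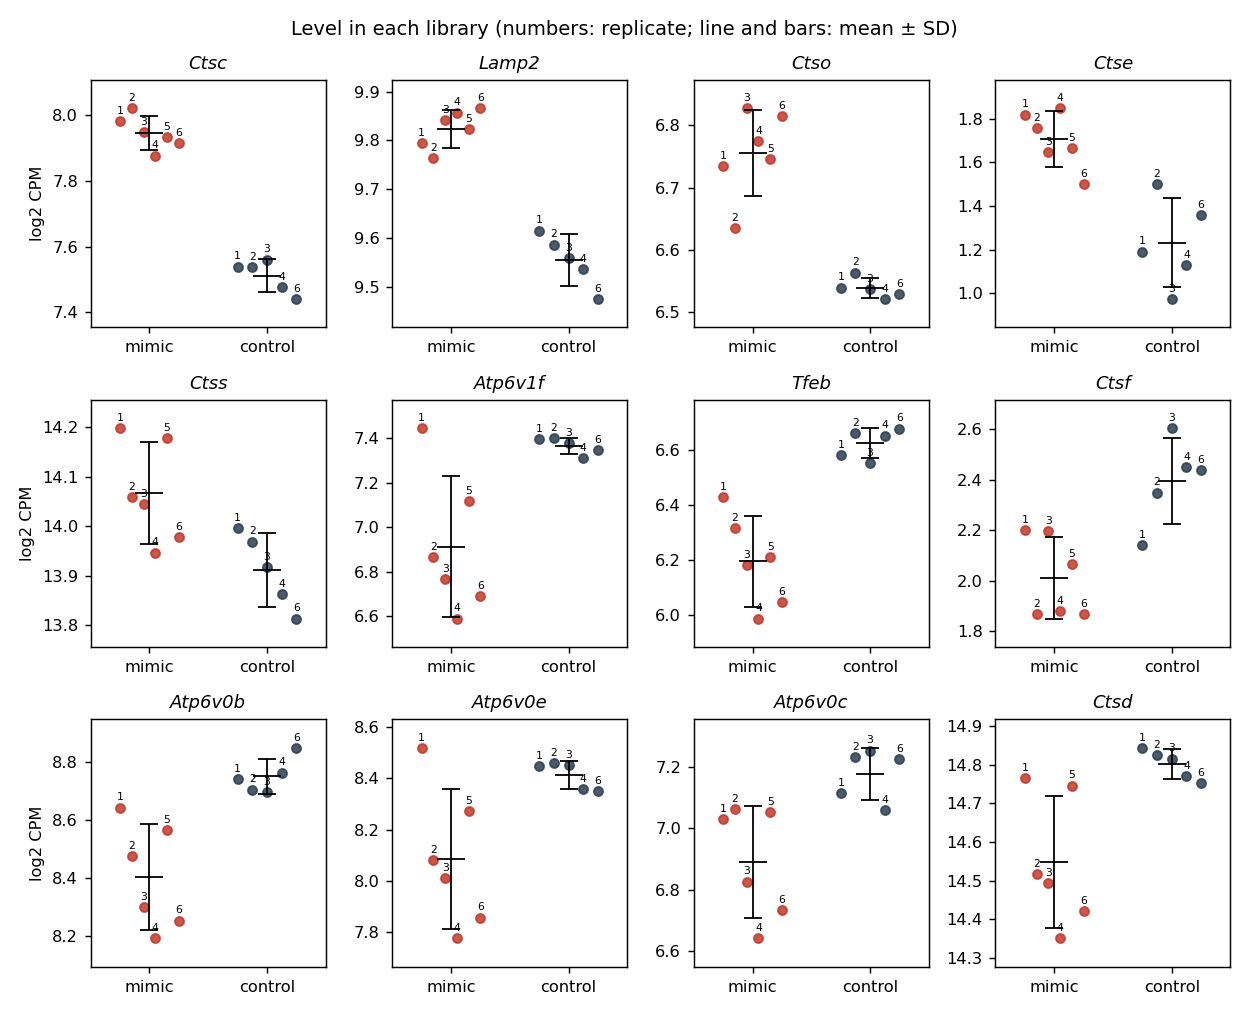
Level of 12 called genes in each library, in log2 CPM, with the replicate number beside each point and the mean and SD of each group; the vertical axes differ and do not start at 0. Ctsc, Lamp2, Ctso, Tfeb and Atp6v0b separate the groups, while mimic library 1 reaches or passes the controls for Atp6v1f (7.45) and Atp6v0e (8.52).

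The lower and the higher genes were picked by their calls in these same libraries, which sets the sign of their medians against the controls. The median deviation of the 9 lower genes from their control means was -0.11, -0.29, -0.35, -0.54, -0.14 and -0.50 in mimic libraries 1, 2, 3, 4, 5 and 6, and between -0.03 and 0.04 in control libraries. By that median, mimic libraries 4 and 6 held the largest deficits and libraries 1 and 5 the smallest. Atp6v0a1 did not follow it: its deviation was -0.23 and -0.21 in mimic libraries 1 and 2, and -0.04 and -0.07 in mimic libraries 3 and 6. For the 8 higher genes the median deviation was 0.12 to 0.25 in mimic libraries and -0.04 to 0.04 in control libraries. That median showed no such split, but single genes did, in opposite ways. Ctss deviated by 0.286 and 0.266 in mimic libraries 1 and 5, and by 0.035 and 0.066 in libraries 4 and 6. Lamp2 had 0.240 and 0.210 in mimic libraries 1 and 2, and 0.302 and 0.312 in libraries 4 and 6. Atp6ap2 had 0.068 and 0.026, and 0.133 and 0.197, in those libraries. Without mimic libraries 3, 4 and 6, 8 genes were higher and 6 were lower, 38.9% of the set, against 16.2% of all genes called in that fit.

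**Figure D4:**
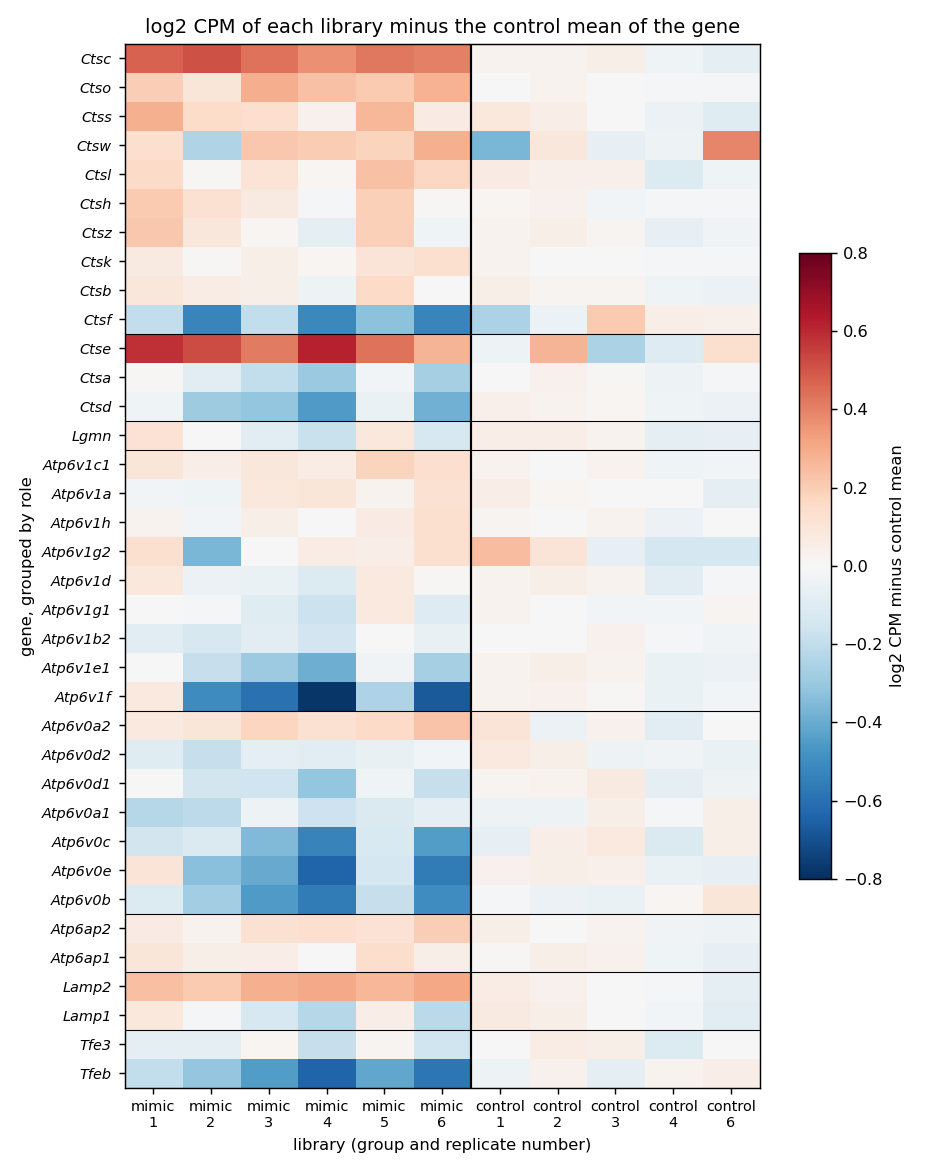
Deviation of each tested gene in each library from that gene's control mean, in log2 CPM (red above, blue below), with mimic libraries left of the vertical line and genes grouped by role. Ctsc and Lamp2 are red in all 6 mimic libraries, whereas the blue of Ctsd, Atp6v1f, Atp6v0b, Atp6v0c, Atp6v0e and Tfeb is deepest in mimic libraries 4 and 6.

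Transcript length moved with the same libraries. Over all tested genes the median log2 fold change was -0.17 for transcripts of up to 1000 nt and 0.08 for those above 6000 nt. In the shortest class the medians of the mimic libraries ran from -0.32 in library 4 to 0.05 in library 1. Atp6v1f (806 nt) and Atp6v0b (1000 nt) were the members of that class. All these lengths are of the longest annotated transcript, and which transcript the cells expressed was not examined. The length correction rests on the same lengths. Ctsd, Tfeb, Ctsf, Atp6v0c, Atp6v0e and Atp6v1e1 had such transcripts of 2001 to 3000 nt, where the median of all genes was -0.02. For Atp6v0a1 the longest annotated transcript had 4162 nt. With each library corrected for length, 10 members were higher and 10 were lower, 55.6% of the set, against 31.3% of all genes called in that fit.

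**Figure D5:**
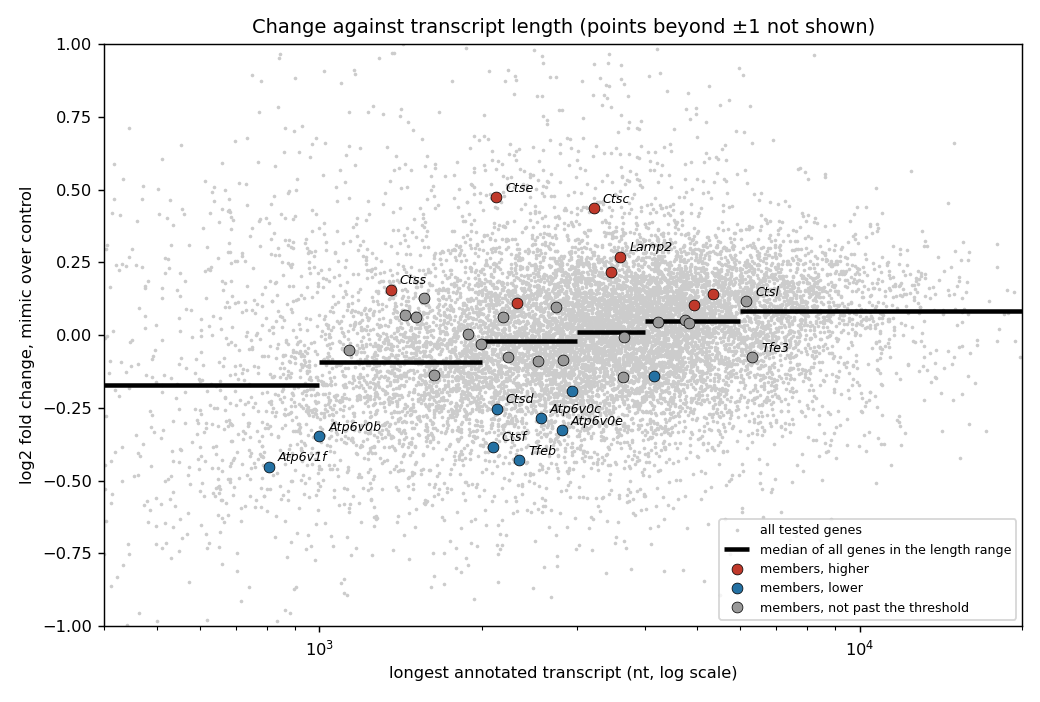
Log2 fold change, mimic over control, against the longest annotated transcript in nt (log axis) for all tested genes (grey) and the lysosomal genes (red higher, blue lower, dark grey not past the threshold), with bars at the median of all genes in 6 length ranges. The bars climb from -0.17 at up to 1000 nt to 0.08 above 6000 nt, and Ctsd, Ctsf and Tfeb lie below the bar of their own range.

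The wider lysosomal system was described through lists of further genes, whose shares stand against 15.4% of all tested genes higher and 14.6% lower. Of 44 lysosomal hydrolases and lumenal proteins, 13 were lower (29.5%) and 7 were higher (15.9%), and the median log2 fold change was -0.05. Npc2, which carries cholesterol out of the lumen, had 0.46 ± 0.07 (adjusted p = 0.000188), the α-galactosidase Gla 0.19 ± 0.03 (adjusted p = 0.000626), and Hgsnat, a heparan sulfate acetyltransferase, -0.32 ± 0.06 (adjusted p = 0.000571). Of 30 tested membrane proteins and transporters, 4 were higher (13.3%) and 6 lower (20.0%), near the shares of all genes (median -0.06). The sialomucin Cd164 had a log2 fold change of 0.39 ± 0.04 (adjusted p = 5.75e-06), Scarb2, the receptor that delivers glucocerebrosidase, 0.17 ± 0.03 (adjusted p = 0.00180), and the transporter Abca2 -0.35 ± 0.05 (adjusted p = 0.000150). Without mimic libraries 3, 4 and 6, the hydrolase counts were 9 higher and 6 lower, and the membrane counts 6 higher and 3 lower. In that fit 9.36% of all genes were higher and 6.83% lower.

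Of 24 genes that regulate the MiT/TFE factors or belong to Ragulator and mTORC1, 4 were higher (16.7%, against 15.4% of all genes) and 2 lower (8.33%, against 14.6%), with a median of -0.02. Lamtor4, a Ragulator subunit, had -0.77 ± 0.16 (adjusted p = 0.00414). Zkscan3, described as a repressor of lysosomal genes, had 0.20 ± 0.05 (adjusted p = 0.00590), and Tfec, the macrophage member of the MiT/TFE family, 0.21 ± 0.05 (adjusted p = 0.00641). Without mimic libraries 3, 4 and 6 the counts were 2 higher and 1 lower, against 9.36% and 6.83% of all genes. Lamtor4 (-0.53, adjusted p = 0.106) and Zkscan3 (0.14, adjusted p = 0.0543) did not pass there.

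Of 12 genes for the a3 subunit and for assembly and regulation of the pump, 2 were higher and 2 lower (16.7% each way, near the 15.4% and 14.6% of all genes), with a median of 0.04. Ncoa7, a TLDc-domain protein that binds the pump, had 0.22 ± 0.06 (adjusted p = 0.0105), and Dmxl1, a subunit of its assembly complex, 0.29 ± 0.08 (adjusted p = 0.0164; 0.111 with no filter). Tldc1 fell by 0.18 ± 0.06 on the log2 scale (adjusted p = 0.0327), a call lost in 6 of 11 omissions of a single library: mimic library 3, 4 or 6 and control library 1, 2 or 6 (adjusted p 0.0537 to 0.0936). None of the 12 passed without mimic libraries 3, 4 and 6, where Ncoa7 had 0.15 (adjusted p = 0.0998), Dmxl1 0.10 (0.0534) and Tldc1 -0.14 (0.172). That fit called 16.2% of all genes.

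Of 18 listed cathepsin inhibitors and processing genes, 7 were tested, 1 was higher (14.3%, against 15.4% of all genes) and 3 lower (42.9%, against 14.6%), with a median of -0.26. Serpinb9, the inhibitor of granzyme B, had 0.35 ± 0.05 (adjusted p = 0.000207). Ifi30, the lysosomal thiol reductase, had -0.27 ± 0.07 (adjusted p = 0.0103), -0.10 with the transcript length correction (adjusted p = 0.0523) and -0.12 without mimic libraries 3, 4 and 6 (adjusted p = 0.0180). The serpin Serpinb6a had -0.18 ± 0.05 (adjusted p = 0.0202), and did not pass without control library 1 (0.0547) or without mimic libraries 3, 4 and 6 (-0.09, 0.149). Cstb, cystatin B, an inhibitor of cysteine cathepsins, averaged 8.79 ± 0.43 log2 CPM in mimic libraries and 9.44 ± 0.08 in control libraries (SD) and fell by 0.65 ± 0.19 (adjusted p = 0.0245). Its call was lost without mimic library 4 or 6 (adjusted p 0.0612 to 0.0619), and its change was -0.39 without mimic libraries 3, 4 and 6 (adjusted p = 0.303). In that fit 1 gene of the list was higher and 1 lower, against 9.36% and 6.83% of all genes. With the transcript length correction Cstb had -0.41 (adjusted p = 0.0213), and with no filter on low values Cstb and Ifi30 did not pass (0.0747 and 0.0829).

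Of 23 genes that sort enzymes to lysosomes, 3 were higher (13.0%, against 15.4% of all genes) and 6 lower (26.1%, against 14.6%), with a median of 0.03. The sorting receptor Sort1 had -0.31 ± 0.04 (adjusted p = 2.10e-05), the HOPS subunit Vps41 0.22 ± 0.06 (adjusted p = 0.00936) and the retromer subunit Vps29 -0.30 ± 0.08 (adjusted p = 0.00969). Without mimic libraries 3, 4 and 6 none was higher and 2 were lower, against 9.36% and 6.83% of all genes. Vps41 (0.11, adjusted p = 0.0627) and Vps29 (-0.19, adjusted p = 0.288) did not pass there.

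The authors' deposited table gave 7 of the 36 genes as higher and 12 as lower at an adjusted p below 0.05, and 16 genes had the same call there and here. Atp6v0a2 was called here and not in the authors' deposited table (adjusted p = 0.0841 there), while Atp6v0d2, Atp6v1b2 and Ctsa were called lower only in the authors' deposited table (log2 fold changes of -0.09, -0.09 and -0.15). In the GENCODE M21 annotation the spans of 16 of the 36 genes, introns included, overlap another gene, 5 on the same strand and 13 on the other. Whether these overlaps reach exons was not examined. The strand setting of the counting is not known, so some reads of those pairs may be shared.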

How the data were processed

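RNA was sequenced from macrophages given a miR-150 mimic (6 libraries) or a negative control (5). Per the series' design text 12 samples were prepared and 1 was omitted by the submitters. Group and replicate number come from the sample titles. STAR, Subread, featureCounts and edgeR were used, per the submitters' processing notes. Versions, genome build, annotation and strand setting are not given in the sources used here. As deposited, the authors' expression values are in log2 CPM, relative to a scaled library total. From the values, each is log2 of a whole read number plus 0.5 over that total, and 100% of values gave whole reads within 0.01 read. The authors' deposited table also holds a log2 fold change, limits, a p-value and an adjusted p-value per gene, and per-gene scores (t, B and a signed linear fold) that were not used, from a test not named in the sources used here. The table has 32265 lines for 31936 genes, and the first line of each gene was used. Replicate libraries differed beyond sampling noise in all pairs (chi-square per degree of freedom 2.41 to 39.5).

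A linear model with a group term was fitted with limma 3.58.1 (R 4.3.3, statmod 1.5.0, intensity trend, robust) to the deposited log2 CPM of 12969 genes, with Benjamini-Hochberg adjustment over all of them; each adjusted p-value is from it. The threshold for a call was an adjusted p of 0.05. Fold changes are on the scale of log2 CPM with that pseudocount and understate changes of low genes. Exact permutation tests used every assignment of the 11 libraries to the groups. The script was tested on simulated data. Alternatives covered scaling, filter, pseudocount, voom with sample weights, trend, threshold, replicate number, a lowess correction for transcript length (span 0.3) and libraries left out.

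The members and lists were chosen with earlier results of these data known. The genes named were 16 fixed members, each called member, the highest of each role and up to 3 called genes per list by smallest p, with Tcirg1, Mitf and Cstb. The remaining members are named to account for all of them. Promoter windows are from RefSeq (GRCm38.p6), and gene positions, transcript lengths and overlaps from GENCODE M21. Figures were drawn with matplotlib 3.10.9, and tables made with numpy 2.4.6 and pandas 2.3.3. The sequence of the mature miR-150 strand in the mimic was not used here.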

Additional observations from a re-analysis of the deposited data

Results flagged for a closer look

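In 2 of the 72 groups of libraries examined (36 genes, mimic and control), 1 library stood far from the rest. Chance gives such a gap in about 1 of 20 groups. Mimic library 2 had the lowest level of Ctsw, at -0.92 log2 CPM, and the next lowest mimic library had -0.55. It also had the lowest level of Atp6v1g2, at 1.40 log2 CPM, and the next lowest mimic library had 1.78. Both genes are at low levels, and neither differed between mimic and control libraries in limma (adjusted p of 0.636 and 0.990).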

How the results depend on the processing

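The 8 higher genes (15.4% of all genes were higher) became 5 in limma with no intensity trend and no robust setting (12.7% of all genes). They became 5 with the replicate block (13.7%). At an adjusted p below 0.01 they became 4 and the 9 lower genes 2, and the share of all genes was not computed there. Leaving out 1 library at a time gave 4 to 9 higher and 6 to 12 lower genes, against 11.5% to 20.8% and 10.8% to 19.3% of all genes. The cause was not tested. The other settings gave 7 to 10 higher and 6 to 12 lower genes, against 5.11% to 22.8% and 4.59% to 20.5% of all genes. The replicate block gave 11 lower genes, against 13.8% of all genes. Same-numbered mimic and control libraries deviated with correlations of -0.06 to 0.06, so the numbers were not taken as pairs. The median log2 fold change of the 36 genes stayed within 0.061, the spread of its mimic libraries, under each setting run. For 49 named genes, from the set and from the lists, values were read from the fit of all genes under each setting. Those at an adjusted p below 0.01 came from the main fit. Of 1078 such values 947 kept their direction and their side of the threshold, 108 lost the call, 19 gained it, 4 moved and 0 reversed. Ctsf, Ctse, Ctsw and Atp6v1g2 rest on low levels, where depth limits precision.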
